A study of Mus musculus with 16 samples.

Results

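The response of wild-type (WT) mouse colon organoids to tumour necrosis factor alpha (TNFa) was measured on 8 of the 16 arrays of the study. Colon organoids are hollow balls of colon epithelium grown in culture from crypt stem cells, without the immune cells, vessels and connective tissue of the gut wall. The 8 arrays were chosen by their titles: 4 held RNA of untreated WT organoids and 4 held RNA of WT organoids given recombinant mouse TNFa at 50 ng/ml for 12 h. All organoids grew in ENR, a medium with EGF, Noggin and R-spondin, and neither strain, age nor sex was given in the sources used here. The other 8 arrays held mutant organoids, 4 untreated and 4 with the same TNFa treatment. Their titles call them ATF2/7 fl, while other labels give ATF2 fl/fl with ATF7 KO or ATF2 KO with floxed ATF7, so the altered alleles are not settled. They entered the fit and are used here only for a side by side comparison.

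The protocol text of every sample names TNFa, so only samples whose own title names it were taken as treated. No label says that the numbered samples were separate animals or cultures, and the p-values therefore measure the spread between these samples, which may be technical. Values are log2 signals, so a difference of 1 is a doubling. A gene was called higher or lower in treated organoids where limma's Benjamini-Hochberg adjusted p was under 0.05, and each group had n = 4 arrays.

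TNF is a cytokine made chiefly by macrophages and T cells, and its soluble form acts mainly through the receptor TNFR1. Receptor binding recruits TRADD, TRAF2 and the ubiquitin ligases cIAP1 and cIAP2, and the kinases TAK1 and IKK then release NF-kB from its inhibitor IkBa. NF-kB switches on chemokine and cytokine genes together with its own inhibitors, IkBa and A20, which end the signal. In the inflamed colon TNF acts on the epithelium itself, and antibodies against TNF are used in inflammatory bowel disease.

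The labelled tissue was checked against marker genes. The epithelial adhesion gene Epcam had a mean signal of 11.35 log2 without TNFa and 11.35 with it. Of 20 immune cell markers on the array 18 were too dim to test, and so were 13 of 15 endothelial and glial markers and 11 of 17 fibroblast and smooth muscle markers. The pan-leukocyte gene Ptprc stood at 6.25 and 6.41 log2 and the endothelial gene Pecam1 at 5.37 and 5.18, in the dim range below 6.56 log2 where a fold change is only approximate. The log2 of the summed signal of the immune markers lay between 10.43 and 10.48 on the untreated and between 10.32 and 10.48 on the treated arrays. Array WT + TNFa 2 stood apart: its correlation with its group averaged 0.977, against 0.986 to 0.988 for the other treated arrays and 0.991 to 0.993 for the untreated ones.

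Of 18850 named genes on the array, 11766 were bright enough to be tested and 1269 of them (10.8%) were called. Treatment raised 592 genes (5.03% of those tested) and lowered 677 (5.75%). The counts of gene lists and families below are to be read against these shares. Most of the changes were small. Of the raised genes 454 changed by less than 1.5-fold, 79 by 1.5-fold to 2-fold and 59 by at least 2-fold, and of the lowered genes 554, 94 and 29. Only 3 genes rose and 3 fell by at least 4-fold. The 4 treated arrays did not overlap the 4 untreated arrays for 1088 called genes (9.25% of all tested), against 1667 of all tested genes, called or not (14.2%). Leaving out each of the 8 arrays in turn, 331 of the raised and 424 of the lowered genes kept their call every time. Without WT + TNFa 2 the counts were 638 raised and 792 lowered, and in a fit of the 8 WT arrays alone they were 320 and 400. With every array centred on its own median the split was 449 raised to 775 lowered.

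**Figure D1:**
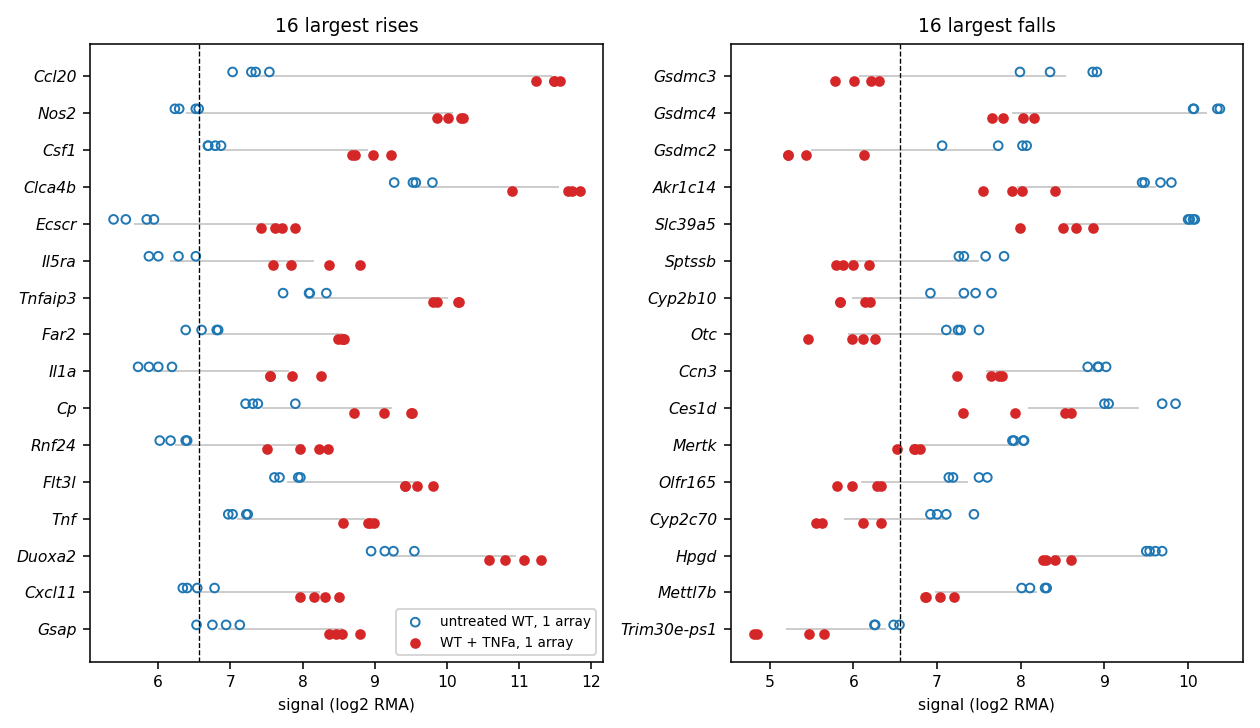
Log2 RMA signal (x axis) of the 16 genes with the largest rises (left) and the 16 with the largest falls (right) among called genes without overlap, 1 circle per array, open blue for untreated WT and filled red for WT with TNFa. Grey lines join the group means and the dashed line marks 6.56 log2, below which signals are dim; Ccl20 moves from 7.30 to 11.45 log2 and Gsdmc3 from 8.53 to 6.08.

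At the top of the pathway the receptor genes moved unequally. Tnfrsf1a, which encodes TNFR1, had signals of 10.03, 10.07, 9.89 and 9.91 log2 on the 4 untreated arrays and 9.93, 9.91, 10 and 10.08 on the 4 treated arrays, a difference of 0.00 (95% interval -0.12 to 0.13, adjusted p = 0.974). Tnfrsf1b, which encodes the second TNF receptor, TNFR2, had 7.12, 6.87, 7.02 and 7.02 without TNFa and 7.68, 7.51, 7.48 and 7.94 with it. All treated arrays were above all untreated ones for Tnfrsf1b, and it rose 1.56-fold (0.64 log2, SE 0.10, adjusted p = 0.000473). Of 21 tested genes of the TNF receptors and their immediate signalling partners, 4 rose and 0 fell, with a list median of 0.09 log2 against 0.01 over all tested genes. The other risen members were Birc3, which encodes cIAP2 (2.01-fold, 1.01 log2, SE 0.07, adjusted p = 3.78e-08), the adaptor Traf2 (1.49-fold, 0.57 log2, SE 0.08, adjusted p = 0.000157) and Map3k7, which encodes TAK1 (1.20-fold, 0.26 log2, SE 0.05, adjusted p = 0.00322). The adaptor gene Tradd differed by -0.03 (adjusted p = 0.822). All 4 rises kept their call without any of the 8 arrays.

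Nearly every NF-kB subunit and IkB gene rose. Of 9 tested members 8 were higher and 0 lower, and the list median was 0.54 log2. Nfkbia, the IkBa gene, had signals of 9.17, 9.32, 9.41 and 9.36 on the untreated arrays and 10.65, 10.48, 10.66 and 10.75 on the treated ones. The treated arrays were all more than 1 log2 above the highest untreated array, and Nfkbia rose 2.49-fold (1.32 log2, SE 0.08, adjusted p = 7.75e-09). Nfkb2, which encodes the p100 precursor of the p52 subunit, went from 9.15, 9.18, 9.12 and 9.22 to 10.11, 10.27, 10.16 and 10.28, again without overlap, and rose 2.05-fold (1.04 log2, SE 0.06, adjusted p = 7.61e-09). Its partner Relb rose 1.46-fold (0.54 log2, SE 0.06, adjusted p = 2.12e-05). The atypical IkB genes Nfkbiz (1.59-fold), Bcl3 (1.53-fold) and Nfkbid (1.32-fold) and the classical Nfkbib (1.46-fold) rose as well. Rel rose 1.18-fold, but it lost its call without 2 of the 8 arrays, with an adjusted p of 0.0714 without WT 4. Rela, the p65 subunit, was the member not called: its signals were 8.72, 8.83, 8.44 and 8.59 without TNFa and 8.96, 8.54, 9.10 and 9.26 with it, and the groups overlapped (0.32 log2, SE 0.11, adjusted p = 0.0885). Without WT + TNFa 2 all 9 members were called.

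The sequences below are the 250 bases before a transcription start for genes of this response in which a match to the kappa B consensus, the DNA element bound by NF-kB, was found. They are the genes for the largest rise (Ccl20), the inhibitors A20 and IkBa (Tnfaip3, Nfkbia), a subunit (Nfkb2), a macrophage growth factor (Csf1) and a CXC chemokine (Cxcl10), taken from RefSeq on build GRCm38.p6 and written 5′ to 3′ on the gene's strand. Capitals mark the kappa B matches. The build of the array's own annotation was not given in the sources used here.
Ccl20, chr1:83116516-83116765, plus strand: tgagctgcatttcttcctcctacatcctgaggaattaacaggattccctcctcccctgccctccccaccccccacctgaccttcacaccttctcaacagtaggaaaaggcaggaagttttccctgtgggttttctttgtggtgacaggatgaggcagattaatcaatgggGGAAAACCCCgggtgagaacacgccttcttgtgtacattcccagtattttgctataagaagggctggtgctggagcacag
Csf1, chr3:107760470-107760719, minus strand: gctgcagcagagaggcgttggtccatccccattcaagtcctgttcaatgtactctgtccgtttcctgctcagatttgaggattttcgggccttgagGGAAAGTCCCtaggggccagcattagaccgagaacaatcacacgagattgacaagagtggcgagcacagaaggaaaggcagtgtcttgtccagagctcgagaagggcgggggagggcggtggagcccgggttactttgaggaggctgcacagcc
Tnfaip3, chr10:19015411-19015660, minus strand: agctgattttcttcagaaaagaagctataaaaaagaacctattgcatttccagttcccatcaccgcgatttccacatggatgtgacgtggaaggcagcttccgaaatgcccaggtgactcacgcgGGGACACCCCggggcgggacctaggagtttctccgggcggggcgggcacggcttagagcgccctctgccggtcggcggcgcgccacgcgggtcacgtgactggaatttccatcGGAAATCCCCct
Nfkbia, chr12:55492648-55492897, minus strand: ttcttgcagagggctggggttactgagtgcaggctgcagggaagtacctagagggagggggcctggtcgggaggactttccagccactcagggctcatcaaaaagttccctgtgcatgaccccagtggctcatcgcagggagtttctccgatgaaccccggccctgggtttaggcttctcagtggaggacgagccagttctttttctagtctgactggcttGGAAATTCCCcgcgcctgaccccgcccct
Cxcl10, chr5:92348890-92349139, minus strand: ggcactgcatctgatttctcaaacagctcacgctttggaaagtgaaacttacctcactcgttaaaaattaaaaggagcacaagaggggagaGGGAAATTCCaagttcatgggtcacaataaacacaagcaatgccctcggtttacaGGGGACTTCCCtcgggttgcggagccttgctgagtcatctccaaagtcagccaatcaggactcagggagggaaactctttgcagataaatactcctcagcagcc
Nfkb2, chr19:46304487-46304736, plus strand: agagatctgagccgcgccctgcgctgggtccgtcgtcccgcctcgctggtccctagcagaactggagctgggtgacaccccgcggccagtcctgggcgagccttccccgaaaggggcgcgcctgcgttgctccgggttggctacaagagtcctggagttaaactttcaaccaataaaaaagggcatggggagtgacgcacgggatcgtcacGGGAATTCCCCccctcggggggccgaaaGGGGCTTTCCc

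The Ccl20 match ended 71 bases before the start and the Nfkbia match 20 bases before it. The sequences shown for Cxcl10 and Nfkb2 each held 3 matches, some of which overlap each other. That of Tnfaip3 held 2, the nearer ending 3 bases before the start. Other starts of Nfkb2, not shown, held 1 match each, and another start of Tnfaip3 held 0. Promoter windows of 300 bases, 250 before and 50 after the start, were available for 9561 tested genes, some with several windows. At least 1 kappa B match, on either strand, was found for 79 of 447 raised genes (17.7%), 65 of 532 lowered genes (12.2%) and 1180 of all 9561 (12.3%). Among genes raised at least 2-fold it was 9 of 44 (20.5%), namely the 6 above and Nox1, Psg17 and Tnfaip2. A loose form of the AP-1 element, TGANTCA, with any base in the middle, was found for 55 of the 447 raised genes (12.3%). It was found for 12 of the 44 raised at least 2-fold (27.3%), 48 of the 532 lowered (9.02%) and 661 of all (6.91%). Those 12 included Il5ra, Tnfaip3, Il1a, Cp, Duoxa2, Ang4 and Guca2a. The match of Cp read TGATTCA and that of Duoxa2 TGAATCA, and a stricter form of the element was not counted. The cyclic AMP element TGACGTCA, the element bound by ATF and CREB factors, was found for 7 raised genes (1.57%), 11 lowered genes (2.07%) and 334 of all (3.49%). The interferon gamma element TTCNNNGAA was found for 51 raised genes (11.4%) against 782 of all (8.18%), and the core of the interferon-stimulated response element for 19 (4.25%) against 321 of all (3.36%). Over all 32851 windows of that length, regardless of gene, the shares were 8.46% for kappa B, 7.81% for AP-1, 1.79% for the cyclic AMP element, 8.3% for the interferon gamma element and 3.44% for the interferon core. Raised genes had 1.3 windows each on average, lowered genes 1.39 and all tested genes 1.26, and more windows give more room for a match. These motifs were counted separately and can overlap, and a match is only a match of letters.

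Several genes for inhibitors of the signal rose. Of 18 tested feedback genes 8 rose and 1 fell (median 0.22 log2). Tnfaip3, which encodes the ubiquitin-editing inhibitor A20, had signals of 7.73, 8.09, 8.10 and 8.33 on the untreated arrays and 9.81, 10.15, 9.87 and 10.17 on the treated arrays. The lowest treated array was above the highest untreated array by more than 1 log2, and the rise was 3.83-fold (1.94 log2, SE 0.12, adjusted p = 9.61e-09). The A20-binding partner Tnip3 rose 1.59-fold (0.67 log2, SE 0.06, adjusted p = 4.58e-07), Zc3h12a, which encodes the RNase regnase-1, 1.72-fold (0.78 log2, SE 0.08, adjusted p = 4.04e-06) and the early response gene Ier3 1.60-fold (0.68 log2, SE 0.11, adjusted p = 0.000709). The deubiquitinase gene Cyld rose 1.31-fold (0.39 log2, SE 0.09, adjusted p = 0.011). Tax1bp1, another partner of A20, fell 1.29-fold, from 10.17, 10.32, 10.14 and 10.07 to 9.76, 9.62, 9.86 and 9.98 (-0.36 log2, SE 0.07, adjusted p = 0.00252). Tnip1 (1.18-fold higher) lost its call without 4 of the 8 arrays, with an adjusted p of 0.0829 without WT + TNFa 1.

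Chemokine genes held the largest rise of all. Ccl20, which attracts CCR6-bearing lymphocytes and dendritic cells, had signals of 7.54, 7.35, 7.03 and 7.29 without TNFa and 11.57, 11.24, 11.49 and 11.49 with it. Its treated arrays were all more than 3 log2 above every untreated array, and the change was 17.7-fold (4.15 log2, SE 0.11, adjusted p = 2.31e-13). Of 14 tested chemokines 8 rose and 0 fell (median 0.51 log2), and all 8 kept their call without any of the 8 arrays. Of 21 chemokines on the array 11 had dim untreated means, and such genes could pass the brightness filter through treated arrays alone. The filter thus favours rises in this count and median. Cxcl16, the ligand of CXCR6, rose 2.41-fold, from 10.23, 10.22, 10.28 and 10.35 to 11.54, 11.42, 11.54 and 11.66 (1.27 log2, SE 0.07, adjusted p = 7.61e-09). The neighbouring genes Cxcl9, Cxcl10 and Cxcl11, ligands of CXCR3 on activated T cells, rose together: Cxcl11 from 6.40, 6.34, 6.78 and 6.54 to 8.5, 8.16, 7.96 and 8.31 (1.71 log2, SE 0.16, adjusted p = 1.57e-06). Cxcl10 went from 6.26, 6.18, 6.29 and 6.24 to 7.19, 7.42, 7.47 and 7.64 (1.19 log2, SE 0.11, adjusted p = 7.65e-07), and Cxcl9 rose by 0.71 log2 (adjusted p = 0.00744). All 3 started in the dim range, so their folds are approximate. The neutrophil chemoattractant Cxcl2 (1.57-fold, also from the dim range) and Ccl9 (1.53-fold) rose as well. The mucosal chemokines Ccl25 (-0.01 log2, adjusted p = 0.946) and Ccl28 (-0.24, adjusted p = 0.0518) were not called, although Ccl28 was called lower without WT + TNFa 2. A further 7 chemokines, Cxcl1 and Cxcl5 among them, were too dim to test.

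Cytokine genes followed. Csf1, the macrophage colony-stimulating factor, had signals of 6.69, 6.69, 6.79 and 6.87 without TNFa and 8.72, 8.69, 8.98 and 9.22 with it, without overlap, and rose 4.41-fold (2.14 log2, SE 0.17, adjusted p = 1.9e-07). The signals of Tnf, the gene of the cytokine, went from 6.97, 7.22, 7.03 and 7.24 to 8.91, 8.56, 8.94 and 8.99, a rise of 3.33-fold (1.73 log2, SE 0.14, adjusted p = 3.82e-07); the array reads RNA, so the added protein does not enter this value. The alarmin Il1a went from 5.72, 6.19, 6.0 and 5.87, in the dim range, to 7.55, 7.55, 7.85 and 8.26 (1.86 log2, SE 0.14, adjusted p = 2.05e-07). Of 21 tested cytokines and growth factors 8 rose and 2 fell (median 0.20 log2). Of 31 on the array 14 had dim untreated means, so the brightness filter favours rises in this count and median too. Other risen members were Tgfb1 (1.73-fold), Il34, a second ligand of the Csf1 receptor (1.60-fold), and Lif (1.34-fold). The lowered members Il18 (-0.22 log2) and Il15 (-0.36) lost their calls without 4 and 8 of the 8 arrays, with adjusted p of 0.132 without WT 1 and 0.102 without WT 4. Flt3l, the dendritic cell growth factor, stood outside these lists and was among the 16 largest rises: it went from 7.61, 7.94, 7.68 and 7.97 to 9.58, 9.81, 9.42 and 9.42 (3.38-fold, 1.76 log2, SE 0.11, adjusted p = 1.8e-08).

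**Figure D2:**
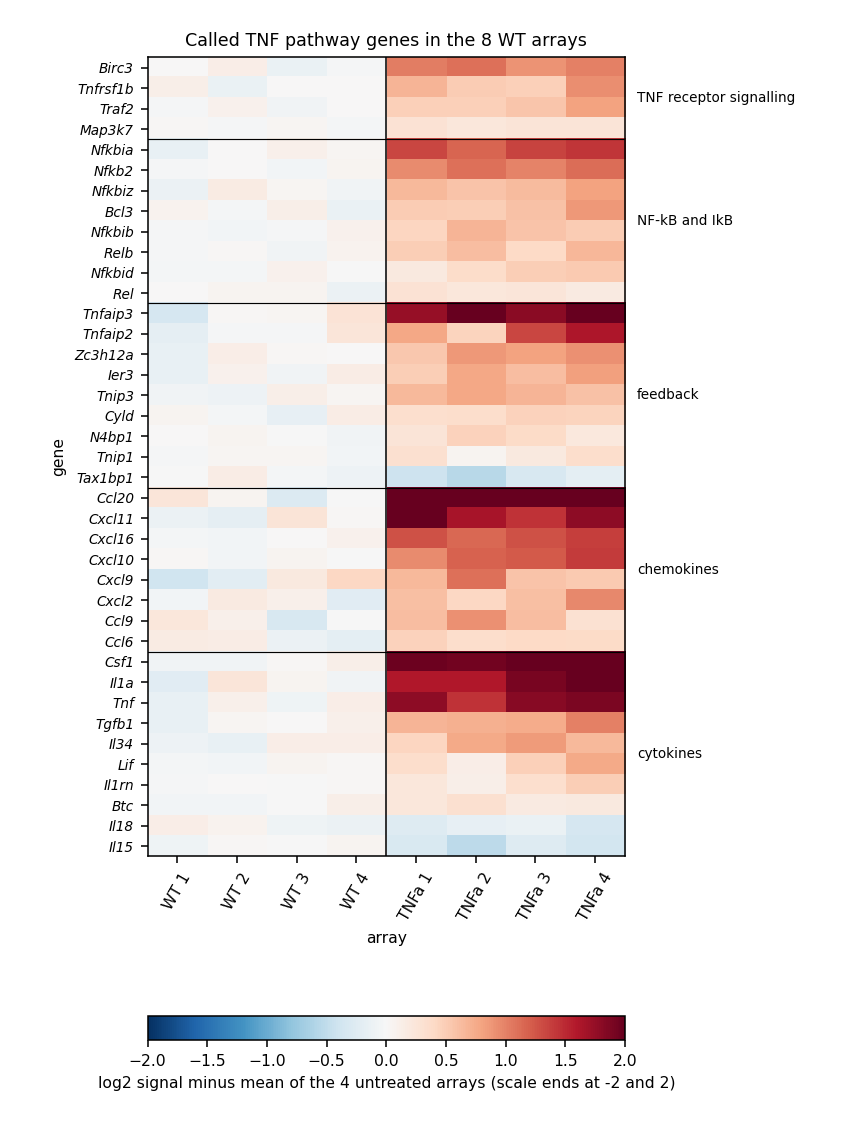
Heat map of the called members of 5 lists of the TNF pathway (rows) on the 4 untreated and 4 treated WT arrays (columns), coloured by the log2 signal minus the mean of the untreated arrays, with the colour scale ending at -2 and 2. All rows are red on the treated arrays except Tax1bp1, Il18 and Il15, and the untreated arrays lie near 0.

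Among the TNF ligand and receptor families 5 of 18 tested genes rose and 0 fell (median 0.20 log2). Tnfsf15, which encodes the T cell costimulator TL1A, rose 2.05-fold, from 8.36, 8.15, 7.91 and 8.47 to 9.16, 9.32, 9.38 and 9.17 (1.04 log2, SE 0.09, adjusted p = 9.76e-07). Tnfsf10, the death ligand TRAIL, rose 2.51-fold from the dim range (1.33 log2, SE 0.14, adjusted p = 6.41e-06) and Tnfrsf11b, the decoy receptor osteoprotegerin, 1.62-fold (0.70 log2, SE 0.12, adjusted p = 0.00078). Fas and Tnfrsf12a were called with 0.35 and 0.22 log2 but lost their calls without 5 and 6 of the 8 arrays (adjusted p = 0.119 without WT 1 and 0.0999 without WT 3).

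Receptors for other cytokines moved in both directions, with 3 of 24 tested higher and 4 lower (median 0.02 log2). Dim untreated means, found for 13 of 36 on the array, let the brightness filter favour rises. Il6st, the shared gp130 chain of the interleukin 6 family, had 8.81, 8.88, 8.71 and 8.84 without TNFa and 9.43, 9.71, 9.44 and 9.44 with it, and rose 1.62-fold (0.69 log2, SE 0.08, adjusted p = 7.76e-06). Il4ra rose 1.32-fold (0.40 log2, SE 0.07, adjusted p = 0.000544). Il5ra, a chain of the interleukin 5 receptor known from eosinophils, went from 6.28, 6.52, 5.87 and 6.0 to 7.84, 7.59, 8.80 and 8.36 (1.98 log2, SE 0.27, adjusted p = 8.45e-05), with the treated arrays spread over more than 1 log2 and the untreated ones in the dim range. Il17re, the receptor chain for interleukin 17C, fell 1.46-fold (-0.55 log2, SE 0.09, adjusted p = 0.000737) and the growth factor receptor gene Fgfr3 1.5-fold, from 8.83, 8.75, 8.78 and 8.73 to 8.31, 8.32, 8.03 and 8.07 (-0.59 log2, SE 0.09, adjusted p = 0.000178). These are the 2 of the 4 lowered receptors that kept their calls without any array, while Erbb2 and Il17rc lost theirs without 3 and 6 of the 8 (adjusted p up to 0.0713 without WT + TNFa 3 and 0.127 without the same array).

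Several genes for nitric oxide and reactive oxygen rose. Nos2, the inducible nitric oxide synthase, had 6.29, 6.56, 6.23 and 6.52 on the untreated arrays and 9.87, 10.19, 10.01 and 10.22 on the treated ones, a change of 12.8-fold from the dim range (3.67 log2, SE 0.17, adjusted p = 5.36e-10). Of 13 tested genes of this list 6 rose and 0 fell (median 0.04 log2). Nox1, the NADPH oxidase of colon epithelium, rose 2.44-fold, from 9.02, 9.02, 8.63 and 8.93 to 10.28, 10.17, 10.18 and 10.11 (1.29 log2, SE 0.08, adjusted p = 2.16e-08). Cyba, its p22phox subunit, rose 1.90-fold (0.93 log2, SE 0.06, adjusted p = 3.55e-08). Duoxa2, the maturation factor of the dual oxidase DUOX2, went from 8.95, 9.14, 9.26 and 9.55 to 10.80, 11.31, 10.59 and 11.07 (3.29-fold, 1.72 log2, SE 0.17, adjusted p = 2.93e-06). Gch1, which makes the tetrahydrobiopterin cofactor of nitric oxide synthases, rose 1.36-fold (0.44 log2, SE 0.10, adjusted p = 0.00593). The oxidase organiser Noxo1 (-0.19 log2, adjusted p = 0.0954) was not called, and the activator Noxa1 (0.19) lost its call without 6 of the 8 arrays (adjusted p = 0.13 without WT 3).

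In the list of acute phase, complement and mucosal defence genes 6 of 23 tested rose and 3 fell (median 0.13 log2). The brightness filter favours rises here, since 15 of 37 on the array had dim untreated means. Cp, the copper oxidase ceruloplasmin, had 7.21, 7.90, 7.38 and 7.31 without TNFa and 9.51, 8.71, 9.52 and 9.13 with it; array WT + TNFa 2 was the lowest of the treated arrays, yet above all untreated ones. Cp rose 3.41-fold (1.77 log2, SE 0.17, adjusted p = 2.24e-06). The antimicrobial ribonuclease Ang4 rose 2.24-fold (1.16 log2, SE 0.14, adjusted p = 2.07e-05), the peptidoglycan-binding Pglyrp1 1.43-fold (0.52 log2, SE 0.05, adjusted p = 2.93e-06) and serum amyloid A3, Saa3, 1.36-fold (0.44 log2, SE 0.07, adjusted p = 0.000735). Reg4, a secreted lectin, fell 1.69-fold, from 11.10, 11.07, 10.86 and 10.88 to 10.20, 10.25, 10.22 and 10.23 (-0.75 log2, SE 0.07, adjusted p = 1.57e-06). The lysozyme genes Lyz1 and Lyz2 both had -0.74 log2 and lost their calls without 4 of the 8 arrays each (adjusted p = 0.0892 without WT 1 and 0.0826 without WT 2). These 2 genes are near-identical and can share probes.

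Sensors of microbes were called in both directions, with 3 of 21 tested higher and 4 lower (median 0.04 log2). Nod2, the receptor for bacterial muramyl dipeptide, went from 5.16, 5.10, 5.10 and 5.74, in the dim range, to 6.52, 6.71, 6.67 and 6.97 (1.44 log2, SE 0.15, adjusted p = 4.18e-06). Cd14, a co-receptor for lipopolysaccharide, rose 1.47-fold, from 9.13, 9.06, 9.06 and 9.05 to 9.61, 9.69, 9.58 and 9.63 (0.55 log2, SE 0.05, adjusted p = 6.98e-07). Nlrp6, an inflammasome sensor of the gut epithelium, fell 1.38-fold, from 9.99, 10.02, 10 and 9.97 to 9.53, 9.59, 9.36 and 9.63 (-0.47 log2, SE 0.07, adjusted p = 0.000222). The adaptor Myd88 (0.28 log2) lost its call without 2 of the 8 arrays, with an adjusted p of 0.0658 without WT + TNFa 3. Of the 4 lowered genes only 2 kept their calls without any array: Naip5 and Ticam1 lost theirs without 5 and 7 of the 8 arrays (adjusted p up to 0.133 without WT + TNFa 3 and 0.121 without that array), and in the fit of the WT arrays alone 1 gene of the list was called lower.

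Interferon-linked genes rose in part: 8 of 28 tested were higher and 1 was lower (median 0.16 log2), and a further 16 on the array were too dim to test. Of 44 on the array 22 had dim untreated means, so the brightness filter favours rises in this count and median. The interferon regulatory factor gene Irf1 rose 1.56-fold, from 8.25, 8.23, 8.31 and 8.28 to 8.84, 8.80, 8.96 and 9.06 (0.65 log2, SE 0.07, adjusted p = 4.92e-06). The ubiquitin-like Isg15 went from 6.40, 6.04, 6.10 and 6.22 to 7.52, 7.18, 6.85 and 6.92, out of the dim range (0.92 log2, SE 0.15, adjusted p = 0.000393), and the RNA sensor gene Ddx58 rose 1.81-fold (0.86 log2, SE 0.16, adjusted p = 0.00197). The neighbouring Parp14 and Dtx3l rose 1.44-fold and 1.37-fold. Irf7 (0.46 log2) lost its call without 5 of the 8 arrays (adjusted p = 0.138 without WT 2). Of 23 antigen presentation genes 7 rose and 0 fell (median 0.11), among them the class I light chain B2m (1.36-fold), the peptide editor Tapbpl (1.42-fold), the immunoproteasome subunit Psmb9 (1.40-fold) and the proteasome activator Psme2 (1.30-fold, 0.38 log2, SE 0.05, adjusted p = 0.000129). Psmb8, another immunoproteasome subunit (0.42 log2), lost its call without 6 of the 8 arrays (adjusted p = 0.0956 without WT 3).

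The 3 largest falls were those of gasdermin C genes, relatives of the pore former of pyroptosis. Gsdmc4 had 10.38, 10.35, 10.06 and 10.07 on the untreated arrays and 8.16, 7.79, 8.03 and 7.66 on the treated ones, without overlap, and fell 4.93-fold (-2.30 log2, SE 0.16, adjusted p = 6.71e-08). Gsdmc3 went from 8.86, 8.91, 7.99 and 8.35 to 6.01, 6.31, 6.21 and 5.78 (-2.45 log2, SE 0.17, adjusted p = 3.9e-08) and Gsdmc2 from 8.02, 8.07, 7.06 and 7.73 to 5.22, 6.13, 5.43 and 5.22 (-2.22 log2, SE 0.22, adjusted p = 2.48e-06). Untreated WT 3 was the lowest untreated array for all 3 genes, the treated means of Gsdmc3 and Gsdmc2 were dim, and genes this similar can share probes. Gsdmd, the pore former cut by inflammatory caspases, moved the other way, from 10.17, 10.29, 10.25 and 10.20 to 10.69, 10.71, 10.75 and 10.94 (1.45-fold, 0.54 log2, SE 0.06, adjusted p = 2.14e-05). Casp4, the caspase that binds lipopolysaccharide and cuts gasdermin D, rose 1.78-fold (0.83 log2, SE 0.09, adjusted p = 4.87e-06), the death agonist Bid 1.74-fold (0.80 log2, SE 0.15, adjusted p = 0.00194) and the BCL2 relative Bok 1.51-fold (0.60 log2, SE 0.07, adjusted p = 3.39e-05). Over 30 tested cell death and survival genes 9 rose and 3 fell (median 0.10 log2), the gasdermin C genes being the 3 that fell. Of the 9 rises, those of Pmaip1, Bcl2l1, Mlkl and Mcl1 lost their calls when single arrays were left out (adjusted p = 0.133 without WT 1, 0.0736 without WT + TNFa 4, 0.0939 without WT + TNFa 3 and 0.0707 without WT + TNFa 1).

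Several of the 16 largest rises lie outside inflammation as usually listed. Far2, a fatty acyl-CoA reductase that makes fatty alcohols, had 6.81, 6.83, 6.60 and 6.38 without TNFa and 8.58, 8.49, 8.54 and 8.56 with it (3.69-fold, 1.89 log2, SE 0.12, adjusted p = 2.16e-08), with treated arrays that agreed within 0.1 log2. Ecscr, first described in endothelial cells, went from 5.94, 5.84, 5.55 and 5.38 to 7.42, 7.62, 7.72 and 7.89 (1.98 log2, SE 0.16, adjusted p = 3.09e-07). The log2 of the summed signal of 15 endothelial and glial markers was 9.79 to 9.91 on the untreated and 9.74 to 10.08 on the treated arrays. Which cells gave the Ecscr signal was not tested. Gsap, the gamma-secretase activating protein gene, rose 3.26-fold (1.71 log2, SE 0.14, adjusted p = 3.32e-07). The RING finger gene Rnf24 went from 6.02, 6.40, 6.17 and 6.38, in the dim range, to 7.97, 7.51, 8.23 and 8.35 (1.77 log2, SE 0.17, adjusted p = 2.34e-06). Far2, Ecscr, Gsap and Rnf24 all had treated arrays wholly above the untreated ones, and each kept its call without any of the 8 arrays.

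Genes of ion and water transport were rearranged, with 10 of 39 tested higher and 5 lower (median 0.03 log2). Guca2b and Guca2a encode uroguanylin and guanylin, peptides that open chloride secretion through guanylate cyclase C. Guca2b went from 10.44, 10.49, 10.25 and 10.41 to 12.02, 12.00, 12.10 and 12.10 (3.15-fold, 1.65 log2, SE 0.07, adjusted p = 4.45e-11) and Guca2a from 11.19, 11.25, 11.11 and 11.21 to 12.27, 12.24, 12.20 and 12.27 (2.08-fold, 1.06 log2, SE 0.05, adjusted p = 1.58e-09), both without overlap. Their receptor gene, Gucy2c, fell 1.24-fold, from 11.12, 11.06, 11.04 and 11.09 to 10.81, 10.72, 10.81 and 10.72 (-0.31 log2, SE 0.05, adjusted p = 0.00029). Clca4b, of the chloride channel regulator family, had 9.27, 9.53, 9.57 and 9.80 without TNFa and 11.73, 10.90, 11.68 and 11.84 with it (2.00 log2, SE 0.17, adjusted p = 6.98e-07), and WT + TNFa 2 was the lowest treated array. The basolateral chloride loader Slc12a2 rose 1.64-fold (0.71 log2, SE 0.07, adjusted p = 3.34e-06), the chloride channel Cftr 1.38-fold (0.46 log2, SE 0.11, adjusted p = 0.0126) and the sodium-proton exchanger Slc9a3 1.56-fold (0.64 log2, SE 0.15, adjusted p = 0.00769).

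The epithelial sodium channel subunits parted: Scnn1g rose by 1.48 log2 from the dim range, from 5.81, 5.17, 6.07 and 5.79 to 7.41, 6.64, 7.59 and 7.13 (adjusted p = 0.000303), whereas the brighter Scnn1a fell 1.36-fold, from 9.72, 9.83, 9.79 and 9.81 to 9.20, 9.37, 9.30 and 9.49 (-0.45 log2, SE 0.07, adjusted p = 0.000613). Sgk1, the aldosterone-induced kinase that acts on this channel, fell 1.49-fold (-0.58 log2, SE 0.12, adjusted p = 0.00446). Fxyd4, a regulator of the sodium pump in colon, fell 2.13-fold, from 8.77, 8.61, 8.74 and 8.72 to 7.93, 7.61, 7.33 and 7.61 (-1.09 log2, SE 0.11, adjusted p = 2.93e-06), and the phosphate transporter gene Slc34a2 1.94-fold (-0.95 log2, SE 0.13, adjusted p = 0.000128). Car4 (0.68 log2) and Ano1 (0.51) were called higher but lost their calls without 6 and 4 of the 8 arrays (adjusted p = 0.0841 without WT 1 and 0.0864 without WT 4). In bulk RNA of this kind, fewer cells of a type and less RNA per cell cannot be told apart.

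In no other list did as many genes fall as among enzymes that metabolise drugs, xenobiotics and steroids. Of 51 tested members of that list 28 fell and 0 rose (54.9% called), with a median of -0.36 log2 against 0.01 over all tested genes. Of the 28, 27 kept their call without any of the 8 arrays, the exception being Aldh1b1 (adjusted p = 0.0658 without WT 2), and 26 were called in the fit of the WT arrays alone. Akr1c14, a hydroxysteroid dehydrogenase, had 9.48, 9.45, 9.67 and 9.80 on the untreated arrays and 8.41, 8.01, 7.89 and 7.55 on the treated ones, and fell 3.11-fold (-1.64 log2, SE 0.14, adjusted p = 7.12e-07). Hsd11b2, which inactivates glucocorticoids, went from 10.05, 10.08, 9.87 and 9.88 to 8.84, 9.22, 8.64 and 8.75 (2.15-fold, -1.11 log2, SE 0.14, adjusted p = 4.51e-05). Hsd3b3, a steroid dehydrogenase, fell 1.96-fold (-0.97 log2, SE 0.13, adjusted p = 0.000106), Mgst1, a microsomal glutathione transferase, 1.48-fold (-0.57 log2, SE 0.08, adjusted p = 7.87e-05) and Gstt1 1.38-fold (-0.46 log2, SE 0.06, adjusted p = 2.89e-05). The efflux pump genes Abcb1a (0.01 log2, adjusted p = 0.907) and Abcg2 (-0.08, adjusted p = 0.704), the quinone reductase Nqo1 (-0.02, adjusted p = 0.961) and Gsta4 (-0.16, adjusted p = 0.158) were not called.

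Counted by gene symbol over the whole array, 23 of 38 tested cytochrome P450 (Cyp) genes fell and 0 rose (60.5%, median -0.41 log2), and 7 of 11 carboxylesterases (Ces) fell (63.6%, median -0.62). Of 19 glutathione transferases (Gst) 10 fell and 1, Gstp3, rose (0.62 log2, adjusted p = 0.00055). Of 17 aldehyde dehydrogenases (Aldh) 5 fell and 1, the retinoic acid enzyme Aldh1a3, rose (1.87-fold, 0.90 log2, SE 0.12, adjusted p = 5.3e-05). Leaving out arrays in turn, 20 of the 23 Cyp genes, all 7 Ces genes and 7 of the 10 lowered Gst genes kept their calls each time. Families counted the same way for comparison were 0 called of 29 ribosomal protein genes of the small subunit (Rps), 0 of 38 of the large subunit (Rpl), 1 of 44 Nduf genes of respiratory complex I and 15 of 249 zinc finger genes named Zfp. Of the other families counted, 41 of 233 solute carriers (Slc, 17.6%) were called, 13 higher and 28 lower, of which 6 and 21 kept their calls without any array. Claudins (Cldn) had 2 of 13 higher and 3 lower (38.5% called), Akr genes 2 of 9 lower (22.2%), Trim genes 2 of 37 higher and 4 lower (16.2%) and Abc transporters 3 of 31 higher and 2 lower (16.1%). Keratins (Krt) and Hox genes each had 2 of 22 higher (9.09%) and Tmem genes 6 of 175 each way (6.86%), below the 10.8% called over all tested genes. Neither of the 2 tested glucuronosyltransferases (Ugt), a drug-metabolising family, was called by limma. The proteasome genes (Psm) went the other way, with 9 of 48 higher and 0 lower (median 0.12), of which 4 kept their call without any array.

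Cyp2d26, a liver and gut cytochrome P450, had 11.34, 11.48, 11.81 and 11.78 without TNFa and 10.46, 10.77, 10.12 and 10.37 with it, a fall of 2.26-fold (-1.17 log2, SE 0.12, adjusted p = 5.35e-06), and all treated arrays were below all untreated ones. Cyp2b10, a classic target of the xenobiotic receptor CAR, went from 6.92, 7.32, 7.46 and 7.65 to 6.14, 5.84, 5.84 and 6.2, into the dim range (-1.34 log2, SE 0.17, adjusted p = 5.3e-05), as did Cyp2c70, the bile acid hydroxylase of mice, from 6.92, 7.00, 7.11 and 7.44 to 6.33, 6.12, 5.62 and 5.55 (-1.21 log2, SE 0.17, adjusted p = 9.24e-05). Cyp3a13 fell 1.5-fold, from 10.30, 10.33, 10.42 and 10.48 to 9.96, 9.77, 9.70 and 9.77 (-0.58 log2, SE 0.06, adjusted p = 4.53e-06). The very bright Cyp2c55 fell 1.35-fold, from 12.05, 12.12, 12.21 and 12.05 to 11.71, 11.54, 11.72 and 11.75 (-0.43 log2, SE 0.06, adjusted p = 7.3e-05). The carboxylesterase Ces1d went from 9.05, 9.0, 9.69 and 9.85 to 8.53, 8.6, 7.93 and 7.31 (-1.30 log2, SE 0.24, adjusted p = 0.0015), with widely spread arrays but no overlap, and Ces2a fell 1.69-fold (-0.76 log2, SE 0.12, adjusted p = 0.00048). Mettl7b, a methyltransferase-like gene, fell 2.28-fold, from 8.11, 8.01, 8.29 and 8.31 to 7.20, 6.87, 7.04 and 6.85 (-1.19 log2, SE 0.10, adjusted p = 3.32e-07).

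Many of these genes sit side by side in the genome. With the tested genes placed in chromosome order by RefSeq GRCm38.p6, 23 stretches of at least 3 adjacent tested genes called in the same direction held 84 of 11765 genes. Over all tested genes 10.8% were called, and how many such stretches that share alone would give was not computed. The longest were 8 Cyp2d genes, from Cyp2d10 to Cyp2d26 with 1 pseudogene among them, that fell by 0.39 to 1.17 on the log2 scale, 6 Gstm genes (-0.65 to -0.40), 5 Cyp2c genes (-1.21 to -0.43) and, rising, 5 Ly6 genes from Ly6m to Ly6f (0.28 to 1.43). Shorter stretches held Ces1d, Ces1e and Ces1f (-1.30 to -0.93), Ces2a, Ces2b and Ces2e (-0.76 to -0.62), Cyp2s1, Cyp2b10 and Cyp2f2, and Gstt3, Gstt1 and Gstt2. Cyp2d12 went from 9.79, 9.70, 9.98 and 10.11 to 9.22, 9.26, 8.92 and 8.91 (-0.81 log2, SE 0.15, adjusted p = 0.00134) and Gstm1, a cytosolic glutathione transferase, from 11.35, 11.48, 11.14 and 11.05 to 10.69, 10.67, 10.61 and 10.63 (-0.61 log2, SE 0.08, adjusted p = 9.45e-05). Members of such clusters are similar in sequence and can share probes, so they are not independent measurements. Gstm7, Gstt2, Gstt3 and Ly6c2 lost their calls when single arrays were left out, with adjusted p up to 0.0622 without WT + TNFa 3, 0.0566 and 0.0583 without WT 2 and 0.0846 without WT + TNFa 3.

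**Figure D3:**
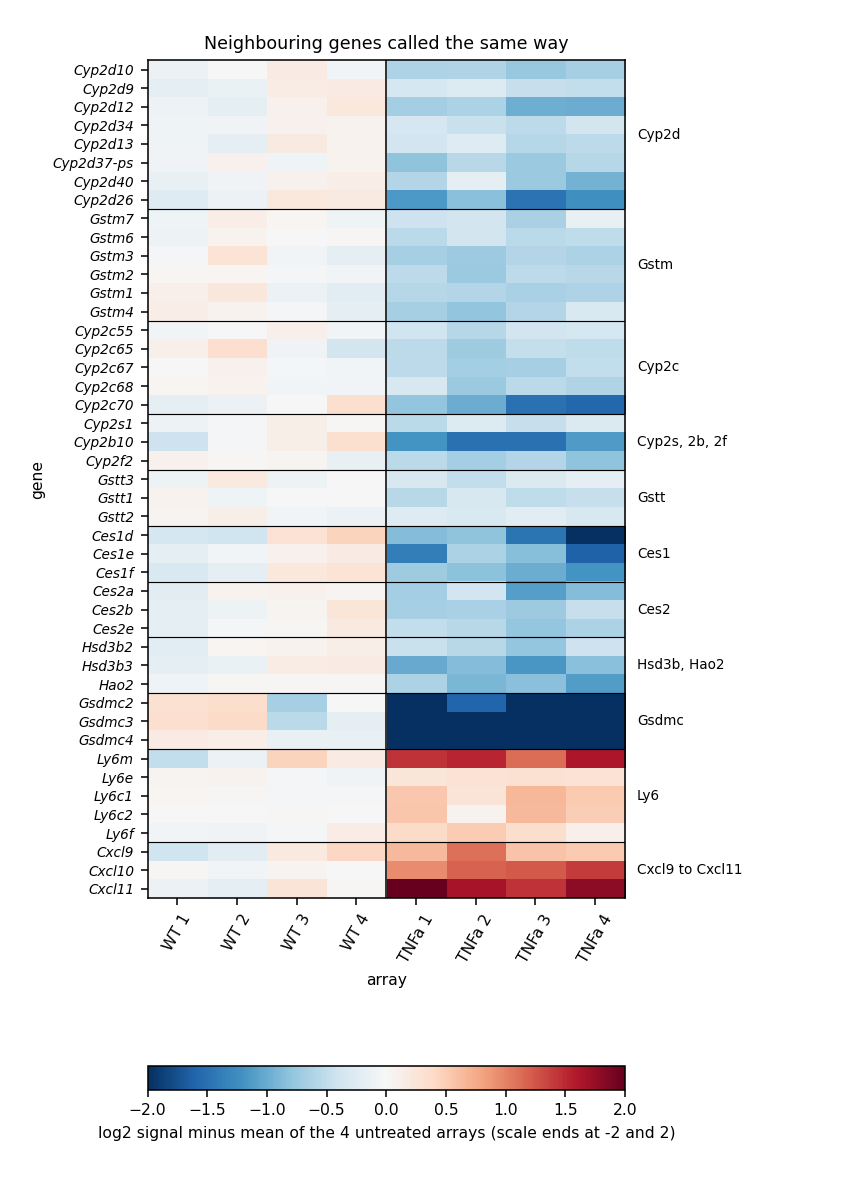
Heat map of genes in stretches of neighbouring called genes (rows, grouped by family) on the 8 WT arrays (columns), coloured by the log2 signal minus the mean of the untreated arrays, with the scale ending at -2 and 2. The Cyp, Gst, Ces, Hsd3b and Gsdmc groups are blue on the treated arrays, the Gsdmc genes past the end of the scale on nearly all of them, and the Ly6 and Cxcl9 to Cxcl11 groups are red.

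Nuclear receptors and their coactivators, which control many of these enzymes, fell in part: 8 of 25 tested were lower and 0 higher (median -0.20 log2). Nr1i3, which encodes CAR, had 8.54, 8.56, 9.01 and 8.84 without TNFa and 7.97, 8.11, 7.57 and 8.09 with it (1.75-fold lower, -0.80 log2, SE 0.12, adjusted p = 0.000254). Ppargc1a, the coactivator PGC-1 alpha, went from 11.15, 11.10, 11.20 and 11.16 to 10.68, 10.54, 10.41 and 10.54 (1.53-fold, -0.61 log2, SE 0.06, adjusted p = 4.37e-06), with a gap between the groups larger than the spread within either. The bile acid receptor gene Nr1h4 (FXR) fell 1.36-fold (-0.44 log2, SE 0.08, adjusted p = 0.00109), the fatty acid sensor Pparg 1.26-fold (-0.33 log2, SE 0.06, adjusted p = 0.0015) and the glucocorticoid receptor Nr3c1 1.32-fold (-0.40 log2, SE 0.09, adjusted p = 0.00544). Nr1i2, the xenobiotic receptor PXR, and the thyroid receptor Thrb (-0.27 and -0.51 log2) lost their calls without 1 and 2 of the 8 arrays, with adjusted p of 0.0574 without WT 2 and 0.0857 without WT 3. Without WT + TNFa 2, 11 members were called lower. Of the hepatocyte nuclear factors, which hold intestinal enzyme genes on, Hnf4a did not pass (-0.10 log2, 95% interval -0.23 to 0.04, adjusted p = 0.392) and Hnf4g fell 1.29-fold (-0.36 log2, SE 0.08, adjusted p = 0.00723), a call lost in the fit of the WT arrays alone.

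Of 16 tested prostaglandin and eicosanoid genes 2 rose and 1 fell (18.8% called, against 10.8% over all tested genes). Hpgd, the enzyme that inactivates prostaglandin E2, had 9.54, 9.50, 9.61 and 9.69 without TNFa and 8.41, 8.6, 8.30 and 8.26 with it, and fell 2.28-fold (-1.19 log2, SE 0.08, adjusted p = 3.33e-08). Abcc4, an exporter of prostaglandins, rose 1.64-fold, from 8.32, 8.38, 8.31 and 8.33 to 8.86, 9.23, 9.03 and 9.07 (0.71 log2, SE 0.08, adjusted p = 1.42e-05). Ptgs2, the inducible cyclooxygenase, had 6.34, 7.03, 6.51 and 6.06 and 6.90, 7.09, 6.64 and 6.99, and its groups overlapped (0.42 log2, SE 0.18, adjusted p = 0.159). The other called rise, of the secreted phospholipase gene Pla2g2a (0.51 log2), was lost without 3 of the 8 arrays (adjusted p = 0.0733 without WT 4).

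Mucins and the enzymes that build their O-linked sugars were called lower more often than higher, with 13 of 41 tested lower and 4 higher (median -0.16 log2). The chain-starting transferase Galnt7 went from 10.02, 10.13, 10.08 and 10.14 to 9.40, 9.65, 9.40 and 9.56 (1.5-fold lower, -0.59 log2, SE 0.07, adjusted p = 2.47e-05). The fucosyltransferase Fut2, which makes H antigen on colonic mucus, fell 1.39-fold (-0.47 log2, SE 0.08, adjusted p = 0.000514), B4galnt2, which makes the Sd(a) antigen, 1.60-fold (-0.68 log2, SE 0.14, adjusted p = 0.00359), the starting transferase Galnt6 1.47-fold (-0.56 log2, SE 0.10, adjusted p = 0.000844) and the sialyltransferase St6gal1 1.57-fold (-0.65 log2, SE 0.08, adjusted p = 3.33e-05). Other sialyltransferases rose: St3gal1, which caps the core 1 sugar, went from 6.65, 7.02, 6.69 and 6.53 to 7.87, 7.68, 8.10 and 8.36 (2.43-fold, 1.28 log2, SE 0.14, adjusted p = 6.36e-06) and St6galnac1, which makes the sialyl-Tn antigen, from 6.73, 6.67, 6.92 and 6.61 to 7.81, 7.64, 7.61 and 7.59 (1.91-fold, 0.93 log2, SE 0.08, adjusted p = 6.56e-07). The trefoil peptide Tff2 rose 1.92-fold (0.94 log2, SE 0.09, adjusted p = 1.57e-06). Muc2, the main secreted mucin of colon, was called lower by a small margin: its signals were 12.17, 12.27, 12.37 and 12.28 without TNFa and 12.14, 11.84, 12.03 and 12.10 with it (-0.25 log2), and the call was lost without 2 of the 8 arrays (adjusted p = 0.0727 without WT 3). Of the 13 lowered genes 8 kept their call without any array. Of 23 tested goblet cell markers, several of them in this list, 3 rose and 5 fell. The log2 of the summed signal of the 24 on the array lay between 15.50 and 15.54 on the untreated arrays. On the treated arrays it lay between 15.46 and 15.53. That sum includes Guca2a, which rose 2.08-fold, and it was not computed without this gene, so it does not show that goblet cell signal was stable. The part of a shift in goblet cells in the result was not tested.

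Genes of lipid handling and fatty acid oxidation followed the same direction, with 12 of 34 tested lower and 3 higher (median -0.20 log2). Fabp2, the intestinal fatty acid binding protein, went from 8.78, 8.76, 8.90 and 9.18 to 8.08, 7.66, 7.67 and 7.56 (2.23-fold, -1.16 log2, SE 0.13, adjusted p = 1.6e-05). Cpt1a, the carnitine transferase that admits fatty acids to mitochondria, fell 1.31-fold (-0.39 log2, SE 0.06, adjusted p = 0.0004), Hadh, a beta-oxidation dehydrogenase, 1.38-fold (-0.46 log2, SE 0.08, adjusted p = 0.000711) and Pex11a, a peroxisome division gene, 1.36-fold (-0.44 log2, SE 0.07, adjusted p = 0.000346). Of the 12 lowered genes 10 kept their call without any array, the exceptions being Acadm (adjusted p = 0.078 without WT 2) and Mttp (0.148 without WT 4), and without WT + TNFa 2 the count was 17. Of the 3 raised genes Acsl5 (adjusted p = 0.0667 without WT + TNFa 3) and Dgat2 (0.14 without WT 1) lost their calls. The sphingolipid gene Sptssb, a small subunit of serine palmitoyltransferase, fell from 7.80, 7.26, 7.32 and 7.58 to 5.88, 6.19, 6.0 and 5.79, into the dim range (-1.52 log2, SE 0.14, adjusted p = 9.76e-07). It was 1 of 2 that fell, with 1 higher, among 22 tested sphingolipid genes, the higher one, Ugcg, losing its call without 5 of the 8 arrays (adjusted p up to 0.0975 without WT 1). The sphingolipid list had 13.6% called, against 10.8% over all tested genes. Among 22 amino acid and urea cycle genes 3 rose and 5 fell, but 1 and 3 kept their calls without any array: Smox (adjusted p = 0.0964 without WT 2), Sms (0.139 without WT 3), Ada (0.0599 without WT + TNFa 3) and Cbs (0.0712 without WT 2) did not. The urea cycle gene Otc fell, from 7.11, 7.25, 7.28 and 7.50 to 5.98, 5.46, 6.11 and 6.26 (-1.33 log2, SE 0.14, adjusted p = 6.89e-06).

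Of 27 tested metal handling genes 5 fell and 1, Cp, rose (median -0.06 log2). Slc39a5, a zinc importer, had 10, 10.06, 10.08 and 10.02 on the untreated arrays and 8.66, 7.99, 8.5 and 8.86 on the treated ones; WT + TNFa 2 was lowest, and the fall was 2.90-fold (-1.54 log2, SE 0.13, adjusted p = 5.68e-07). The iron exporter ferroportin, Slc40a1, fell 1.71-fold, from 10.19, 10.48, 10.46 and 10.48 to 9.53, 9.76, 9.55 and 9.67 (-0.77 log2, SE 0.09, adjusted p = 2.89e-05). The transferrin receptor Tfrc fell 1.65-fold (-0.72 log2, SE 0.09, adjusted p = 5.91e-05) and the metallothionein Mt1 1.26-fold (-0.34 log2, SE 0.06, adjusted p = 0.00202). Steap4, a metalloreductase (-0.41 log2), lost its call without 3 of the 8 arrays (adjusted p = 0.0939 without WT + TNFa 3).

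The remaining large falls were of mixed kinds. Ccn3, a secreted matricellular protein, went from 8.80, 8.93, 8.92 and 9.02 to 7.77, 7.74, 7.65 and 7.24 (2.49-fold, -1.32 log2, SE 0.11, adjusted p = 3.29e-07). Mertk, a receptor kinase for the uptake of dying cells, went from 7.90, 7.92, 8.03 and 8.04 to 6.52, 6.72, 6.73 and 6.80 (2.42-fold, -1.28 log2, SE 0.08, adjusted p = 1.4e-08), with tight groups more than 1 log2 apart. The olfactory receptor gene Olfr165 (-1.26 log2) and the pseudogene Trim30e-ps1 (-1.19) completed the 16 largest falls. Olfr165 had a dim treated mean. Trim30e-ps1 was dim in both groups, with untreated arrays between 6.25 and 6.55 log2, so its fold is only approximate.

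Among genes of adhesion, matrix and wound-associated epithelium limma called rises and no falls. Of 31 tested matrix, integrin and protease genes 8 rose (median 0.08 log2) and of 26 keratin and wound-associated genes 11 rose (median 0.23). In the matrix list 13 of 42 on the array had dim untreated means, so the brightness filter favours rises there. The epithelial integrin Itgb6, which activates TGF beta, went from 9.50, 9.58, 9.65 and 9.77 to 10.76, 10.67, 10.81 and 10.87 (2.22-fold, 1.15 log2, SE 0.09, adjusted p = 2.32e-07), and the plasminogen activator Plat rose 2.08-fold (1.06 log2, SE 0.10, adjusted p = 9.76e-07). The collagen-binding integrin Itga2 increased 1.71-fold (0.78 log2, SE 0.08, adjusted p = 2.81e-06) and the hyaluronan receptor Cd44 1.76-fold (0.82 log2, SE 0.13, adjusted p = 0.00034). Without any of the 8 arrays 6 of the 8 and 8 of the 11 kept their calls, the exceptions being Lama5, Serpinb5, Ccn2, Gabrp and Msln (adjusted p = 0.0903 without WT 1, 0.128 without WT + TNFa 3, 0.0801 without WT 4, 0.0576 without WT 4 and 0.147 without WT + TNFa 3). Of the surface proteins that face immune cells 6 of 25 tested rose and 1 fell (median 0.08), with the calls of Alcam and Cd274 lost when single arrays were left out (adjusted p up to 0.0645 and 0.128, both without WT 2). Icam1, the leukocyte adhesion ligand, rose 2.0-fold, from 7.10, 6.98, 7.49 and 7.05 to 7.86, 8.53, 8.13 and 8.11 (1.00 log2, SE 0.13, adjusted p = 5.31e-05), and the antiphagocytic Cd47 1.53-fold, from 10.92, 10.86, 10.87 and 10.94 to 11.54, 11.50, 11.54 and 11.46 (0.61 log2, SE 0.05, adjusted p = 4.58e-07).

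Of 36 tested junction genes 5 were called higher and 5 lower (median 0.00 log2), of which 3 and 3 kept their calls without any of the 8 arrays. The sealing claudin Cldn4 rose 1.26-fold (0.33 log2, SE 0.07, adjusted p = 0.00505), while Cldn8 fell 1.36-fold (-0.44 log2, SE 0.09, adjusted p = 0.00278) and Cldn15, which forms cation pores, 1.35-fold, from 9.66, 9.65, 9.57 and 9.62 to 9.16, 9.24, 9.17 and 9.18 (-0.44 log2, SE 0.05, adjusted p = 3.52e-05). The pore-forming Cldn2, called lower (-0.37 log2, treated mean dim), lost its call without 5 of the 8 arrays (adjusted p = 0.0771 without WT + TNFa 1). Cgn, Gjb2 and Gjb1 lost theirs without 6, 5 and 6 arrays (adjusted p up to 0.14, 0.0864 and 0.0956, each without WT 1).

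**Figure D4:**
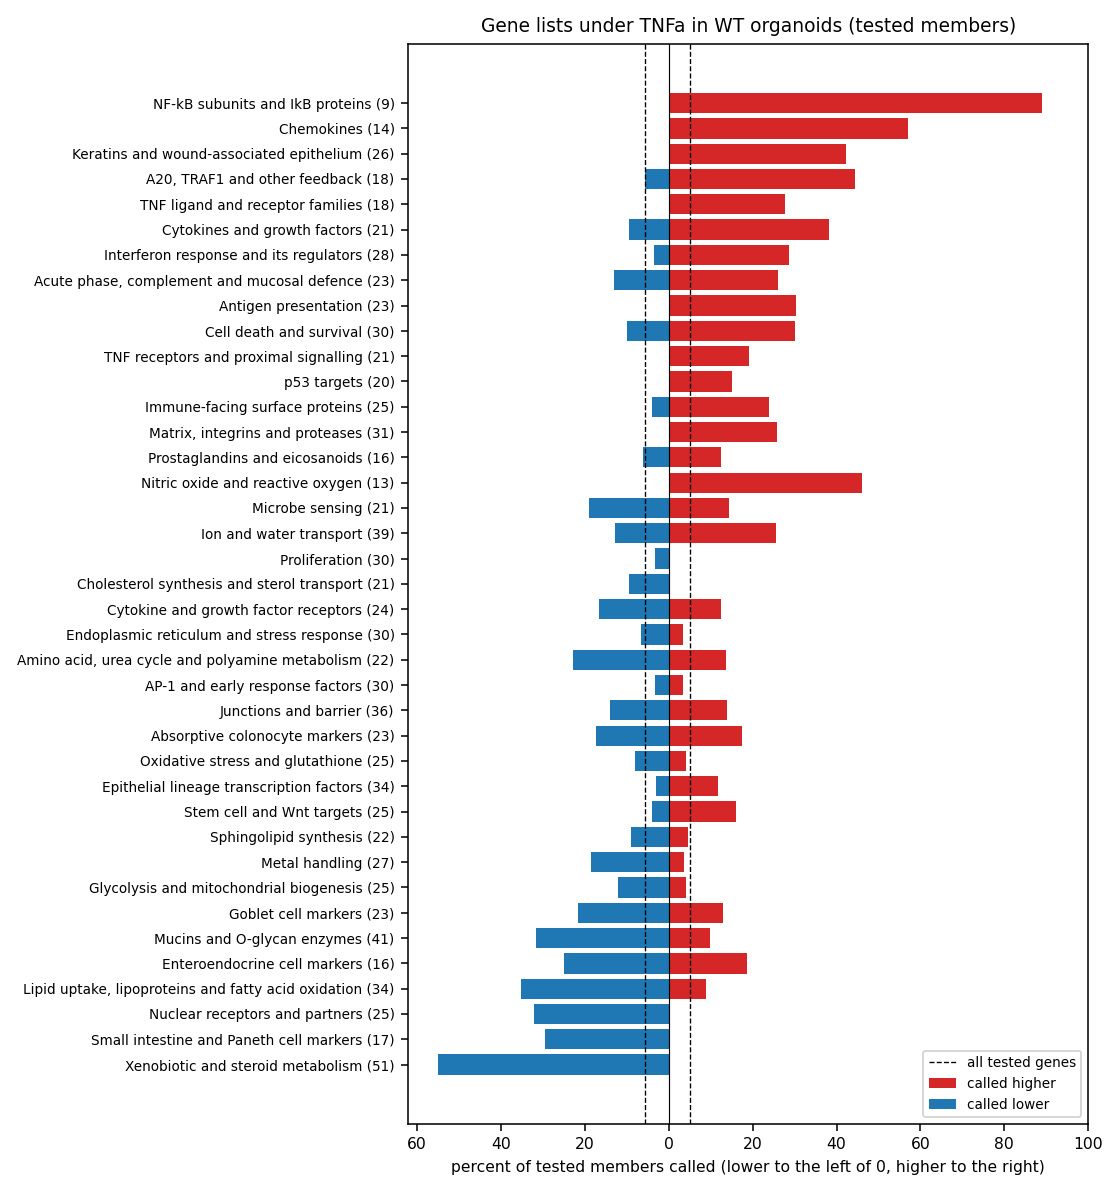
Share of the tested members of each list with at least 9 tested members (number tested in brackets) called higher (red, right of 0) or lower (blue, left of 0), in percent. Lists are in order of their median change. Dashed lines mark the shares over all tested genes, 5.03% higher and 5.75% lower; NF-kB and IkB genes reach 88.9% higher and xenobiotic and steroid metabolism 54.9% lower.

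Markers of the epithelial cell types moved in both directions. Of 23 absorptive colonocyte markers 4 rose and 4 fell (median 0.00 log2), the log2 of the summed signal being 15.69 to 15.77 on the untreated and 15.78 to 15.87 on the treated arrays, without overlap. Guca2b, which belongs to this list, carried that gap: without it the sums were 15.65 to 15.74 and 15.66 to 15.76, which overlap, and without Guca2a as well they were 15.58 to 15.68 and 15.52 to 15.62. The calls of Car4 and Mxd1 (higher) and Slc13a2 (lower) were lost when single arrays were left out (adjusted p up to 0.0841 without WT 1, 0.0541 without WT 2 and 0.0796 without WT 3). Of 16 tested enteroendocrine markers 3 rose and 4 fell (median -0.16). The serotonin synthesis gene Tph1 rose 1.91-fold, from 6.75, 6.85, 6.72 and 6.92 to 7.85, 7.72, 7.74 and 7.65 (0.93 log2, SE 0.14, adjusted p = 0.000194), whereas Ddc, the next enzyme of that pathway, fell 1.46-fold, from 9.16, 9.10, 9.0 and 8.93 to 8.36, 8.68, 8.48 and 8.48 (-0.55 log2, SE 0.08, adjusted p = 0.000165). Of 17 small intestine and Paneth cell markers 0 rose and 5 fell (median -0.33), among them the retinol binding protein Rbp2 (1.67-fold, -0.74 log2, SE 0.11, adjusted p = 0.000173), and the log2 of their summed signal was 13.09 to 13.22 on the untreated and 12.85 to 13.05 on the treated arrays. The calls of Ada, Lyz1 and Mttp in that list were lost when single arrays were left out (adjusted p up to 0.0599 without WT + TNFa 3, 0.0892 without WT 1 and 0.148 without WT 4). No tuft cell marker passed among 6 tested by limma, and 0 of 6 fibroblast markers did. The part of a shift in cell types in the metabolic and mucin changes was not tested.

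Early response, growth, lineage and stress genes were counted as well. Of 30 AP-1 and early response factors 1, Batf2, rose and 1, the differentiation factor Klf4, fell (1.46-fold, -0.55 log2, SE 0.09, adjusted p = 0.000334); Jun (-0.13 log2, adjusted p = 0.373), Fos (0.04, 0.874) and Atf3 (-0.05, 0.837) were not called at 12 h. Of 30 proliferation genes 1, Cdkn1b, fell, and it lost its call without 4 of the 8 arrays (adjusted p = 0.096 without WT 3). Of 34 lineage transcription factors 4 rose and 1 fell, the hindgut factor Hoxd13 most (2.06-fold, 1.04 log2, SE 0.13, adjusted p = 2.54e-05). Of 30 endoplasmic reticulum and stress genes 1 rose and 2 fell (10% called), of 25 oxidative stress and glutathione genes 1 and 2 (12%). Of 21 cholesterol genes 0 rose and 2 fell (9.52%), of 25 stem cell and Wnt target genes 4 and 1 (20%). Of 25 glycolysis and mitochondrial genes 1 rose and 3 fell (16%), of 20 p53 targets 3 and 0 (15%). The AP-1 list had 6.67% called, proliferation 3.33% and lineage factors 14.7%, against 10.8% over all tested genes. Shares near or below 10.8% are not read as a response of the list. Several of these counts rest on single arrays. Hyou1, the stress gene that rose, lost its call without 4 of the 8 arrays (adjusted p up to 0.1 without WT 3). The lowered oxidative stress genes Cat (0.066 without WT + TNFa 3) and Gclm (0.0807 without WT 1) each lost theirs without 3 of the 8. The lowered cholesterol gene Dhcr7 lost its call without 2 of the 8 arrays (adjusted p up to 0.0569 without WT 4). The lowered glycolysis and mitochondrial genes Pgk1 (0.149 without WT + TNFa 3) and Sdha (0.108 without WT 2) lost theirs without 7 and 5. The raised stem cell gene Ascl2 lost its call without 1 array (0.0504 without WT 1). The 3 p53 targets, Fas, Pmaip1 and Aen, each lost their call when single arrays were left out (adjusted p up to 0.119 without WT 1, 0.133 without WT 1 and 0.146 without WT 3).

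Set beside the mutant organoids, whose arrays are separate from the WT ones, 562 of the 592 genes raised in WT had a positive change in mutant and 287 were called there, and 632 of the 677 lowered genes had a negative change and 222 were called. Over all tested genes 704 (5.98%) were called in mutant. The median change of the lowered genes was -0.37 log2 in WT and -0.19 in mutant, but they were chosen for their WT change, which favours larger values in WT. All of the 16 largest rises and all of the 16 largest falls in WT were called in mutant too. Ccl20 changed by 4.15 log2 in WT and 4.25 in mutant, Nos2 by 3.67 and 4.24, Gsdmc3 by -2.45 and -2.0, and Akr1c14 by -1.64 and -1.08. Of the 28 lowered genes of xenobiotic and steroid metabolism 27 had a negative change in mutant and 24 were called, and the smallest adjusted p for a difference between the genotypes was 0.483. Of the 17 called mucin and O-glycan genes 17 kept their sign and 7 were called in mutant, with a smallest adjusted p for the difference of 0.332. The difference itself was called for 1 of 11766 genes (0.0085%): Reg4 fell by 0.75 on the log2 scale in WT and had -0.07 in mutant (adjusted p = 0.763), a difference of -0.69 (SE 0.10, adjusted p = 0.0344).

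**Figure D5:**
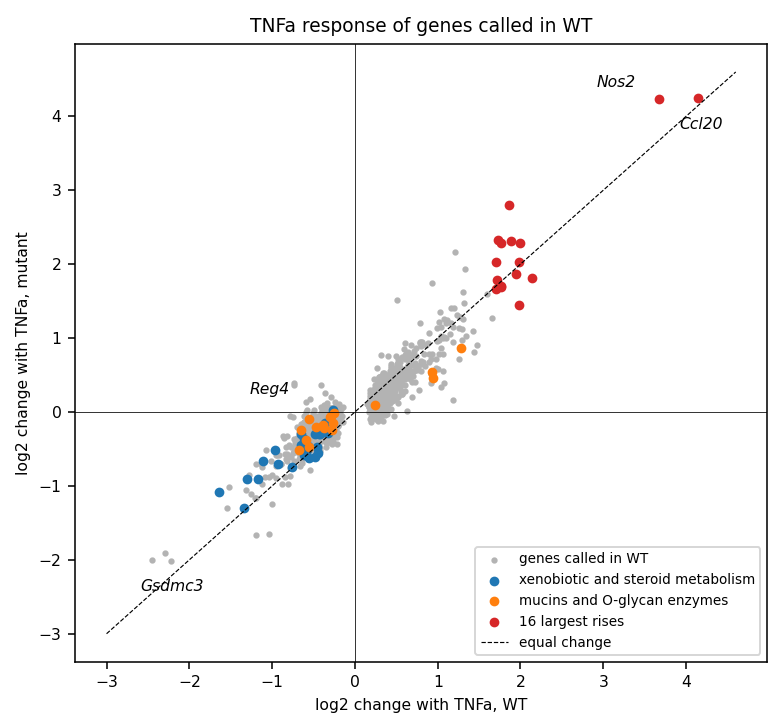
Log2 change with TNFa in WT (x axis) against that in mutant (y axis) for the 1269 genes called in WT, 1 point per gene, with the 16 largest rises in red, lowered xenobiotic and steroid genes in blue and mucin and O-glycan genes in orange. The dashed line marks equal change; Ccl20 and Nos2 lie at the upper right near 4 log2 and Reg4 lies near 0 in mutant.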

How the data were processed

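RNA of each sample was amplified from 400 ng and hybridised to 1 single-colour Affymetrix array, per the labels' protocols. The deposited log2 values are RMA output of Affymetrix Expression Console, per the submitters' processing notes; neither its version nor the array design is given in the sources used here. Of 19825 probe sets 18851 carried 1 symbol, and each gene was represented by its brightest probe set. A gene was tested if above its array's 40th percentile (6.40 to 6.56 log2) on at least 4 of 16 arrays. A gene dim without TNFa could pass through treated arrays alone, which favours rises in the counts and medians of lists with dim members. The group means of all 16 arrays were fitted together (limma 3.58.1, R 4.3.3), with moderated statistics and Benjamini-Hochberg adjustment. The number of arrays limits the precision. The procedure was tested on simulated data. RMA quantile-normalizes the arrays, which hides a global shift.

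Named genes were the 16 largest rises and falls without overlap, up to 4 smallest p per list, and members that describe a list. Families, neighbours and promoter genes were chosen after their values were seen. The members and the gene lists were chosen with earlier results of these data known. Same-numbered arrays did not deviate together, so no block was used. Alternatives were other filters, array weights, renormalization, centring, WT arrays alone, a replicate block and each array left out.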

Additional observations from a re-analysis of the deposited data

Results flagged for a closer look

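Among 290 tests of named genes in groups of 4 arrays, 10 had 1 array far from the other 3. Chance alone gives about 1 in 20, so these flags are no more frequent than chance would give. Array WT + TNFa 2 accounted for 4 of them: it was low for Cyp2c55 (11.54 log2) and high for Il6st (9.71), Slc16a1 (9.52) and Rbp2 (7.32). Of the other treated arrays, WT + TNFa 3 was low for Sprr1a (6.37) and WT + TNFa 1 low for Tnfrsf12a (11.18). Of the untreated arrays, WT 1 was low for Slc40a1 (10.19) and high for Cd14 (9.13), WT 2 was high for Nr1h4 (9.31) and WT 4 high for Nod2 (5.74, in the dim range). Il6st, Slc40a1, Cd14, Nr1h4, Nod2, Rbp2, Cyp2c55, Slc16a1 and Sprr1a kept their calls without any of the 8 arrays, and Tnfrsf12a did not. The TNFa effect on Reg4 differed between the genotypes by -0.69 log2, by the interaction test of limma.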

How the results depend on the processing

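The 592 raised and 677 lowered genes stayed within 1.5 times these counts under most alternatives, namely no filter, a stricter filter, array weights, quantile normalization again and centring on array medians (439 to 768 raised, 525 to 993 lowered). Centring moved the raised share of calls from 46.7% to 36.7%. Leaving out 1 array gave 428 to 638 raised and 518 to 792 lowered. The fit of the WT arrays alone called 320 and 400, and 711 of its 720 calls were among the 1269. The main fit shares 1 estimate of spread per gene over all 4 groups. Treated WT arrays correlated with their group at 0.977 to 0.988 on average, treated mutant arrays at 0.994 to 0.995. The shared spread may thus be too small for the WT comparison. What part this or the smaller number of arrays had in the lower counts was not tested. Title numbers as a replicate block called 390 raised and 486 lowered over all arrays and 197 and 216 over the WT arrays. The numbers show no pairing: deviations of same-numbered WT arrays correlated at 0.01, -0.30, -0.26 and -0.13. Of 461 genes followed over 16 settings 238 kept their call in all and 0 reversed. Signals below 6.56 log2 limit folds: 48 raised genes had dim untreated and 35 lowered genes dim treated means.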

Other observations

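The genes below were called outside the gene lists and were picked after their values were seen. The stress kinase gene Mapk11 went from 8.58, 8.55, 8.66 and 8.58 to 9.72, 9.66, 9.96 and 9.95 log2 (2.34-fold, adjusted p = 9.78e-08) and Ikbke, a kinase upstream of interferon regulatory factors, from 9.19, 9.31, 9.13 and 9.29 to 10.06, 10.29, 10.16 and 10.39 (1.99-fold, adjusted p = 2.39e-07). The intestinal hormone gene Fgf15, known as a bile acid signal of the ileum, rose from 6.56, 6.74, 6.85 and 6.98 to 8.04, 7.46, 8.27 and 8.41 (2.40-fold, adjusted p = 0.000183). Mrc1, the mannose receptor known from macrophages, rose 2.44-fold, from 7.92, 8.23, 8.16 and 8.0 to 9.30, 9.10, 9.48 and 9.58 (adjusted p = 1.5e-05). The leukocyte gene Ptprc was dim on both sides, and which cells gave the Mrc1 signal was not tested. Pgf, a growth factor of the vascular family, rose 2.53-fold, and its untreated arrays ran from 6.82 to 8.23. The sulfotransferase Chst11 rose 2.46-fold and the claudin Cldn14 1.98-fold.

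Among the falls, the iron reductase Steap3 went from 9.0, 8.88, 8.87 and 8.91 to 7.79, 8.14, 7.61 and 7.84 (2.10-fold, adjusted p = 1.08e-05), the aminotransferase Gpt from 8.41, 8.78, 8.88 and 8.87 to 7.62, 7.82, 7.52 and 7.97 (2.0-fold) and the bright muscle and epithelial LIM gene Fhl1 from 11.50, 11.61, 11.73 and 11.71 to 10.54, 10.28, 10.44 and 10.79 (2.18-fold). The brush border peptidase Mep1a fell 1.81-fold and the ceramidase Acer1 1.92-fold.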
